A study of Rattus norvegicus with 4 samples.

Results

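The rat gene annotation holds a small group of protein-coding genes whose annotated spans extend over more than 500 kb of genome. Members were taken as protein-coding genes whose end lies more than 500 kb from their start in the deposited gene table (Rnor_6.0). Of 22293 protein-coding genes, 96 passed this limit. Of these, 13 were set aside by symbol, because they belong to ion channel, glutamate receptor, contactin or laminin families, and 83 genes remained as members. RNA was sequenced from lumbar dorsal root ganglia (DRGs), where sensory neurons have their somata among satellite glia, Schwann cells and other cell types. The 4 libraries came from wild-type Wistar rats, 2 given vehicle (PBS) and 2 given the chemotherapeutic cisplatin, and 2 to 5 lumbar DRGs were pooled for each library. Cisplatin was injected intraperitoneally at 0.3 mg/kg on P14 and P16. The sample labels give 16 days after treatment as the time of collection. The methods place it at P23, and the sex of the rats was not given for the libraries. The labels number the libraries 1 and 2 within each group, and these numbers are used here as replicate names.

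Very long genes consist almost wholly of introns, and the spliced mRNA is a small part of what RNA polymerase II transcribes. A polymerase needs hours to cross the longest of them, so their output is known to be sensitive to lesions and drugs that stop elongation. Cisplatin forms adducts with purine bases of DNA, and such adducts can block a transcribing polymerase. Many long genes encode adhesion proteins, guidance receptors and synaptic scaffolds of neurons, and several lie in common fragile sites, which are prone to breakage when replication is slowed. The comparison of cisplatin with vehicle was made to describe the transcriptional state of the DRG after treatment, and the members allow genomic span to be looked at separately from exonic length.

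Members spanned from 500.08 kb (Dis3l2) to 2232.52 kb (Dmd), with a median of 598 kb against 13.1 kb for all protein-coding genes. There were 43 members of 500 to 600 kb, 26 of 600 to 800 kb and 14 of over 800 kb. The 5 members over 1000 kb were Dmd, Il1rapl1, Cdh13, Pard3b and Gpc6. Exonic length, the summed length of a gene's exons, is a different quantity and was not used to choose members. It ranged from 537 bases (Nkain3) to 23017 bases (Adgrv1), with a median of 4193 bases against 1853 bases for all protein-coding genes. Exons therefore made up a median of 0.647% of a member's span, and at most 3.99%, against a median of 15.1% for all protein-coding genes. Members lay on 20 chromosomes, with 12 on chromosome 2, 10 on chromosome 1, 9 on chromosome 9 and 3 on X. The genomic spans of 22 members overlapped that of another protein-coding gene. Among them were Dmd and, with a gene on the same strand, Magi2, Car10, Cdkal1, Nkain2, Trappc9, Cadps2, Wbscr17, LOC100364854 and Ighm. The annotation describes LOC100364854 as a T-cell receptor alpha chain C region, and its span overlaps 7 other protein-coding genes. The strand setting of the authors' counting is not given in the sources used here, so reads of overlapping genes may be divided between them and the values of these members are uncertain.

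The 4 libraries held 21384801 to 25618417 counts. Members took 0.253% and 0.222% of these counts in the vehicle libraries and 0.227% and 0.194% in the cisplatin libraries. Without Dmd and Utrn the shares were 0.196% and 0.135% in the vehicle and 0.193% and 0.136% in the cisplatin libraries. The defining markers of sensory neurons were all present, with summed levels of 27246 to 44238 CPM (counts scaled to the library size, with TMM factors), and so were those of Schwann cells, at 49742 to 163864 CPM. Mitochondrially encoded RNA made up 1.46% and 2.52% of counts in the vehicle and 5.38% and 4.68% in the cisplatin libraries. In whole ganglia, fewer cells of a type and less RNA per cell cannot be told apart.

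Of the 83 members, 72 (86.7%) passed edgeR's filter on low counts and were tested, compared with 66.0% of all protein-coding genes. The 11 that were not tested included Il1rapl1, Dcc, Agbl1, Tmem132d, Nckap5, LOC100364854, Stpg2, Spag16, AC111762.1 and Sult2a1. Il1rapl1, a synaptic adhesion receptor and the second longest member at 1326.32 kb, had 9 and 1 counts in the vehicle and 11 and 5 counts in the cisplatin libraries. Dcc, the netrin receptor of growing axons, had 21 and 0 counts in the vehicle and 6 and 6 counts in the cisplatin libraries. Sult2a1, a hepatic sulfotransferase, had 0 counts in every library, which allows a level of up to 0.118 to 0.152 CPM (3 counts; counting error only). Per length, the mean level of the tested members over the 4 libraries ran from 0.178 FPKM (Ccser1) to 43.9 FPKM (Slc9a9). Their median was 3.47 FPKM, compared with 7.60 FPKM over all genes tested. There were 15 members above 10 FPKM, 46 at 1 to 10 FPKM and 11 under 1 FPKM.

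No member passed the adjusted test. With an adjusted p below 0.05 and at least a 1.5-fold difference required, edgeR's quasi-likelihood test called 0 of 72 members, against 0.00679% of the 14719 genes tested, which is 1 gene. The smallest adjusted p of a member was 0.509 in edgeR. DESeq2 called 0 of the 80 members to which it gave an adjusted p, against 0.65% of all genes, and its smallest adjusted p among the tested members was 0.288 (Erbb4). limma on log2(FPKM + 1) also called 0 members. At an unadjusted p under 0.05 in edgeR, with no limit on the fold change, 5 members passed (6.94%), compared with 9.57% of all genes tested. With the fold change limit, 3 members passed in the lower direction (4.17%, against 5.32% of all genes tested) and 2 in the higher direction (2.78%, against 2.8%). Both shares were at or below those of all genes. The values behind these counts depended on single libraries. With 1 library left out, the median log2 fold change of the members ran from -0.23 (without cisplatin replicate 1) to 0.14 (without vehicle replicate 1). An exact permutation test of a single gene, two-sided, cannot go below p = 0.333 with this design.

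**Figure D1:**
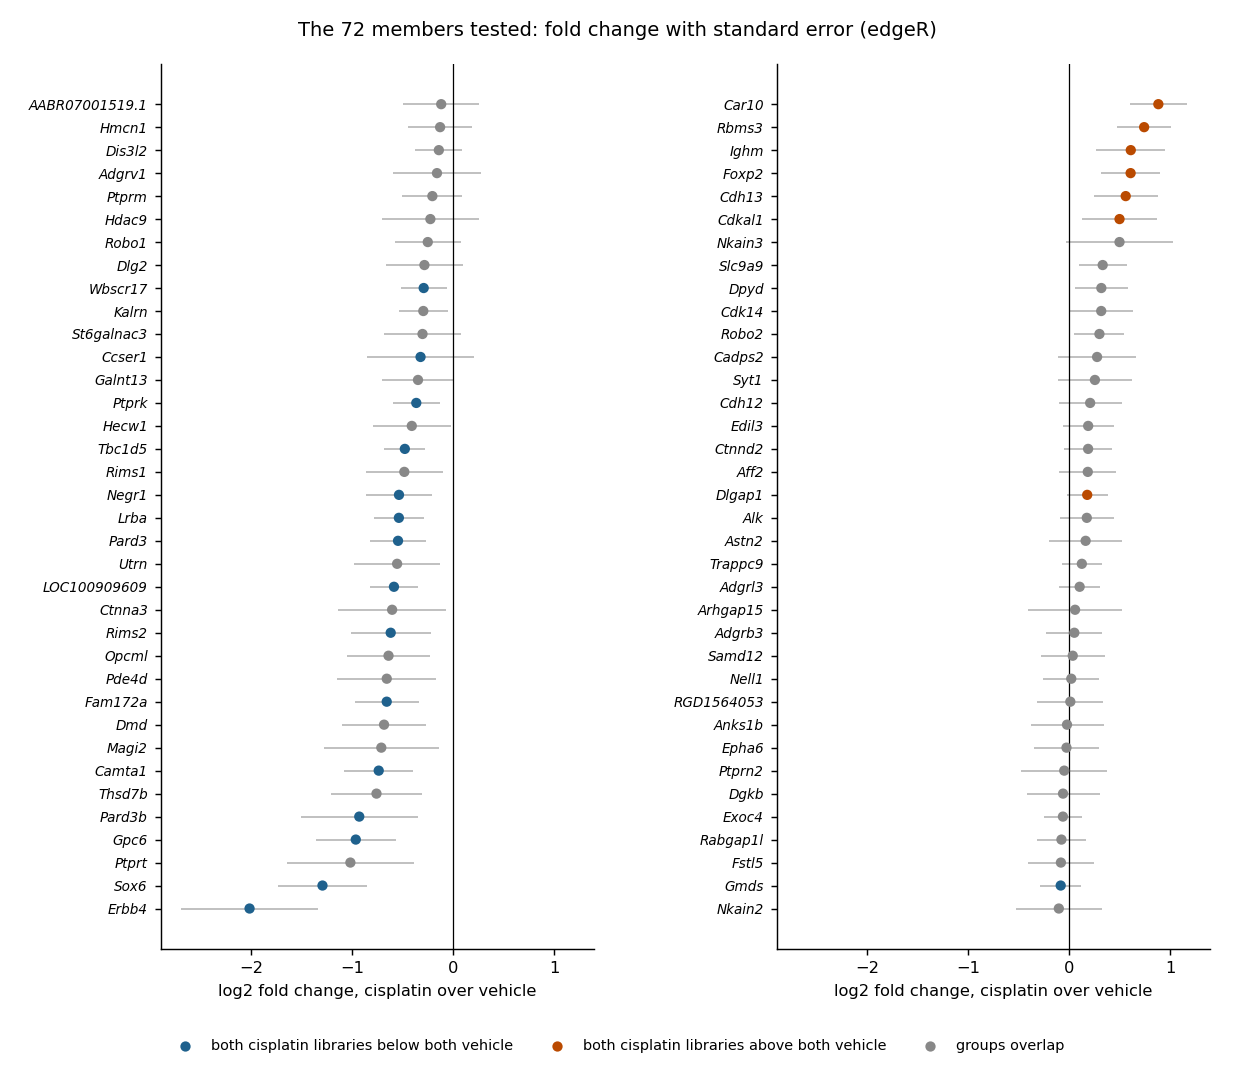
Log2 fold change of each of the 72 tested members (x axis, cisplatin over vehicle) with its standard error from edgeR, in order of fold change and in 2 panels. Blue points are the 16 members with both cisplatin libraries below both vehicle libraries, orange points the 7 with both above, and grey points the members whose groups overlap; the values run from -2.02 to 0.89.

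The plot of fold changes by member shows values from -2.02 (Erbb4) to 0.89 (Car10) on the log2 scale. Their standard errors (SE) ran from 0.19 to 0.68, with a median of 0.33. In 16 members (22.2%, against 21.2% of all genes tested) both cisplatin libraries lay below both vehicle libraries. In 7 members (9.72%, against 20.6%) both lay above. Compared with all genes, the members thus separated downwards about as often and upwards at a lower share. The low upward share was not particular to them. It was 10.2% in genes of 50 to 100 kb, 10.2% at 100 to 250 kb and 8.15% at 250 to 500 kb. In these classes the downward shares were 33.9%, 33.1% and 29.2%, above that of the members.

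Erbb4 (ENSRNOG00000014248; chromosome 9, 75021790 to 75528644, minus strand), a receptor tyrosine kinase for neuregulins, had the lowest fold change. It had 43 and 83 counts in the vehicle libraries (replicates 1 and 2, the order used throughout) and 10 and 25 counts in the cisplatin libraries. This corresponds to 2.97 ± 1.77 CPM in the vehicle and 0.728 ± 0.473 CPM in the cisplatin group (SD, n = 2 each). Both cisplatin libraries were below both vehicle libraries, and in both groups replicate 2 was above replicate 1. The fitted log2 fold change came to -2.02 (SE 0.68, edgeR's adjusted p = 0.509).

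Sox6 (ENSRNOG00000020514; chromosome 1, 185673177 to 186182829, plus strand), an HMG-box transcription factor, had 69 and 39 counts in the vehicle and 19 and 28 counts in the cisplatin libraries. The group means were 2.37 ± 0.548 and 0.969 ± 0.313 CPM (SD, n = 2 each), and the groups did not overlap. For Sox6 the log2 fold change came to -1.29 (SE 0.44, edgeR's adjusted p = 0.509). LOC100909609 (ENSRNOG00000018683; chromosome 1, 206900617 to 207414843, plus strand) is described in the deposited annotation by the protein entry of mouse Dock1, an activator of the GTPase Rac. It had 51.1 and 61.9 CPM in the vehicle and 31.7 and 43.5 CPM in the cisplatin libraries. On the log2 scale the fold change of LOC100909609 came to -0.59 (SE 0.23, edgeR's adjusted p = 0.519), and its span overlaps 1 other protein-coding gene.

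Car10 (ENSRNOG00000002626; chromosome 10, 80790168 to 81296363, plus strand), a carbonic anhydrase-related protein without enzyme activity, had the highest fold change. It had 291 and 245 counts in the vehicle and 693 and 404 counts in the cisplatin libraries, or 12.0 ± 0.581 and 22.2 ± 7.15 CPM (SD, n = 2 each). The vehicle libraries were close to each other, and cisplatin replicate 1 was the highest of the 4. The fold change came to 0.89 on the log2 scale (SE 0.29, edgeR's adjusted p = 0.509), and 1 other protein-coding gene overlaps it on the same strand. Rbms3 (ENSRNOG00000025881; chromosome 8, 124661839 to 125645898, minus strand), an RNA-binding protein, was likewise highest in cisplatin replicate 1. It had 304 and 230 counts in the vehicle and 607 and 377 counts in the cisplatin libraries, or 11.9 ± 0.325 and 20.0 ± 5.56 CPM (SD, n = 2 each). The fold change came to 0.74 on the log2 scale (SE 0.27, edgeR's adjusted p = 0.509).

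**Figure D2:**
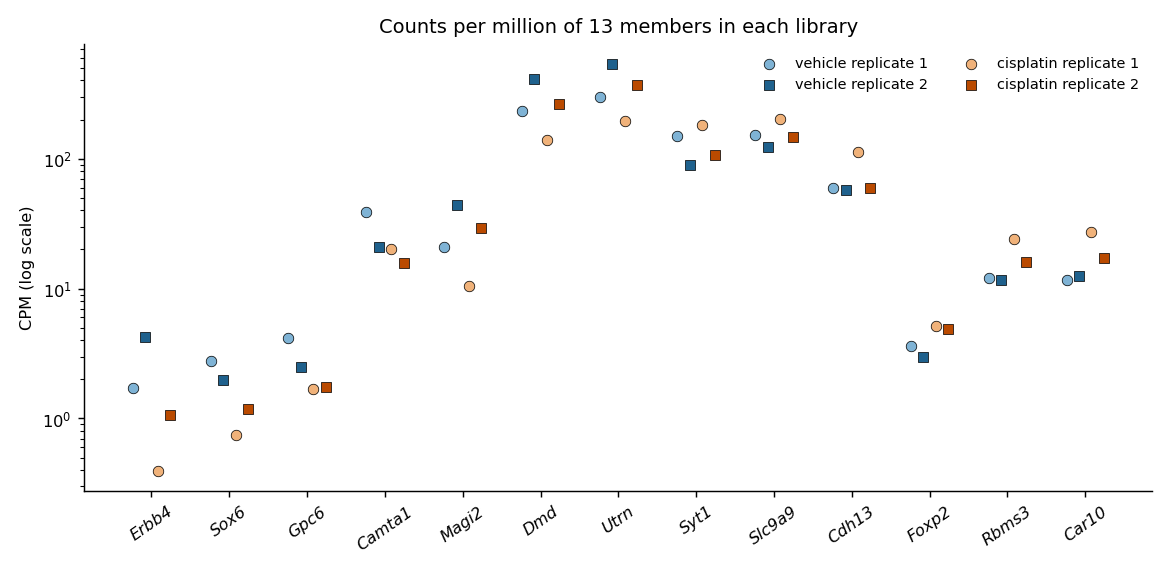
CPM (log scale) of 13 members in each of the 4 libraries, ordered from low to high fold change; circles are replicate 1 and squares replicate 2, blue is vehicle and orange is cisplatin. In Dmd, Utrn, Magi2 and Erbb4 both squares lie above the circle of the same group, and in Syt1, Slc9a9 and Rbms3 both lie below it.

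The remaining members are described by what they encode, and the plot of CPM by library shows 13 of the members. Among the adhesion proteins, both cadherins had positive fold changes. Cdh13 (chromosome 19, 50848736 to 51972103), a cadherin held in the membrane by a lipid anchor, had 59.2 and 57.5 CPM in the vehicle and 112 and 59.8 CPM in the cisplatin libraries. Its log2 fold change of 0.56 (SE 0.32) rested on cisplatin replicate 1 and was 0.05 without that library, and the value of Cdh12 was 0.21. The 3 tested immunoglobulin-family adhesion genes had negative fold changes, with a median of -0.54. They were Opcml (-0.64) and Negr1 (-0.54), which belong to the same family of lipid-anchored neuronal proteins, and Hmcn1 (-0.13), an extracellular protein with many immunoglobulin domains. The 3 synaptic adhesion genes Adgrb3, Adgrl3 and Astn2 had log2 fold changes of 0.05, 0.10 and 0.16, each smaller than its standard error.

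Of the 6 axon guidance and neuregulin genes, 5 were tested and Erbb4 alone passed the unadjusted test. Robo1 and Robo2, the receptors for Slit guidance cues, lie on chromosome 11. Robo2 was the more abundant per length, at 8.97 FPKM against 1.16 FPKM for Robo1. Robo2 had 93.9 and 76.1 CPM in the vehicle and 124 and 85.7 CPM in the cisplatin libraries, so that the groups overlapped, and its log2 fold change was 0.30 (SE 0.25). The values were -0.25 for Robo1, 0.18 for the receptor tyrosine kinase Alk and -0.03 for the ephrin receptor Epha6. The 4 genes of the receptor-type tyrosine phosphatase family had negative values with a median of -0.29. Ptprt (-1.02, SE 0.63) had 4.75 and 1.52 CPM in the vehicle and 1.97 and 1.15 CPM in the cisplatin libraries, so that vehicle replicate 1 stood above the other 3. Ptprk had a value of -0.37 with groups that did not overlap, and Ptprm (-0.21) and Ptprn2 (-0.05) overlapped.

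Synaptic scaffold and vesicle proteins were the most numerous group, with 11 members, all tested. Their median log2 fold change was -0.06, and 7 of the 11 were negative. Syt1, the calcium sensor of vesicle release, had 151 and 89.0 CPM in the vehicle and 180 and 106 CPM in the cisplatin libraries. The difference between its replicates was larger than that between the groups, for which the log2 fold change was 0.26 (SE 0.36). Rims1 (-0.48) and Rims2 (-0.62), which organise the presynaptic release site, were on the negative side. Cadps2 (0.28), which primes dense-core vesicles, was on the positive side, and so were Ctnnd2 (0.19) and Dlgap1 (0.18), which act at the postsynaptic density. Dlg2, a scaffold of the postsynaptic density, had a value of -0.28. Magi2 (chromosome 4, 10995234 to 11610518), a scaffold with PDZ domains, had 20.8 and 44.0 CPM in the vehicle and 10.4 and 29.2 CPM in the cisplatin libraries. The fold change of Magi2 was -0.71 (log2) with a standard error of 0.57, and with single libraries left out it ran from -0.07, without vehicle replicate 2, to -1.64, without cisplatin replicate 2. Lrba, which acts in vesicle traffic, had a value of -0.54 with groups that did not overlap. The values of Exoc4, a subunit of the exocyst, and Anks1b were -0.06 and -0.02.

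Dmd, Utrn and Ctnna3 formed the group of structural proteins, all 3 with negative values and a median of -0.60. Dmd (ENSRNOG00000046366; chromosome X, 51286737 to 53519259, plus strand) encodes dystrophin, which links the cytoskeleton to the membrane and is also made as shorter forms from internal promoters, including a form of Schwann cells. Dmd had 5836 and 8103 counts in the vehicle and 3514 and 6185 counts in the cisplatin libraries, or 322 ± 126 and 201 ± 88.1 CPM (SD, n = 2 each). Replicate 2 was above replicate 1 in both groups, and cisplatin replicate 2 was above vehicle replicate 1. For Dmd the log2 fold change came to -0.68 (SE 0.41, edgeR's adjusted p = 0.605). Utrn (ENSRNOG00000011058; chromosome 1, 6451810 to 6970040, minus strand), the gene of the related protein utrophin, followed the same order. It had 7436 and 10486 counts in the vehicle and 4950 and 8704 counts in the cisplatin libraries, and a log2 fold change of -0.56 (SE 0.42, edgeR's adjusted p = 0.676). With single libraries left out the value of Dmd ran from -0.21 to -1.22 and that of Utrn from -0.07 to -1.09, in both genes smallest in size without vehicle replicate 2 and largest without cisplatin replicate 2. Dmd and Utrn had the highest counts of all members. Together they held 22.6% and 39.2% of the member counts in the vehicle and 14.8% and 29.9% in the cisplatin libraries. Ctnna3, an alpha-catenin of cell junctions, had a value of -0.60 (SE 0.54).

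Of the 5 regulators of small GTPases, cell polarity and the cytoskeleton, 4 had negative values. In 3 of the 5 both cisplatin libraries lay below both vehicle libraries, against 21.2% of all genes tested. Pard3b (-0.93, SE 0.58) and Pard3 (-0.55, SE 0.27) encode related polarity proteins. Pard3 had 34.5 and 40.5 CPM in the vehicle and 19.9 and 31.5 CPM in the cisplatin libraries. The values were -0.32 for Ccser1, -0.30 for Kalrn, a guanine nucleotide exchange factor, and 0.06 for Arhgap15, a GTPase-activating protein. Among the 3 signalling enzymes, Cdk14, a kinase at 28.4 FPKM, had a value of 0.32. Pde4d, which degrades cyclic AMP, had -0.66 (SE 0.49), and Dgkb, a diacylglycerol kinase, had -0.06.

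The 5 transcription and chromatin regulators included members on both sides. Camta1 (chromosome 5, 168141547 to 168734296), a calmodulin-binding transcription activator, had 38.7 and 21 CPM in the vehicle and 20.1 and 15.7 CPM in the cisplatin libraries. The groups of Camta1 did not overlap, although vehicle replicate 2 and cisplatin replicate 1 were close, and its log2 fold change was -0.74 (SE 0.34). Foxp2 (chromosome 4, 41364441 to 41942023), a forkhead transcription factor, had 3.6 and 3 CPM in the vehicle and 5.2 and 4.89 CPM in the cisplatin libraries. Foxp2 had a log2 fold change of 0.61 (SE 0.30), and the replicates lay close together in both groups. The histone deacetylase gene Hdac9 had a value of -0.23 and Aff2 one of 0.19.

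Of the 7 genes of the extracellular matrix, proteoglycans and glycosylation, 6 had negative values, with a median of -0.30. Gpc6 (chromosome 15, 102164751 to 103170847), a glypican that carries heparan sulfate, had 105 and 49 counts in the vehicle and 43 and 41 counts in the cisplatin libraries. Gpc6 had a log2 fold change of -0.96 (SE 0.40, edgeR's adjusted p = 0.519). Wbscr17 (-0.29) and Galnt13 (-0.35), members of the family of enzymes that start mucin-type O-glycosylation, and the sialyltransferase gene St6galnac3 (-0.30) had similar values. Thsd7b had a value of -0.76, Fstl5 one of -0.08 and Nell1, a secreted protein at 29.8 FPKM, one of 0.02.

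Slc9a9, the sodium-proton exchanger of endosomes and the most abundant member per length, had 153 and 124 CPM in the vehicle and 201 and 148 CPM in the cisplatin libraries. Slc9a9 had a log2 fold change of 0.33 (SE 0.24), and vehicle replicate 1 lay above cisplatin replicate 2. The sodium pump-interacting genes Nkain2 and Nkain3 had values of -0.10 and 0.50, each smaller than its standard error. Among enzymes and housekeeping genes, the values were 0.50 for Cdkal1, which modifies transfer RNA, and 0.32 for Dpyd, the first enzyme of pyrimidine breakdown. Trappc9, a tethering factor, had a value of 0.13 and Gmds, an enzyme of fucose synthesis, one of -0.08. Gmds had the most even replicates of these genes, at 15.9 and 15.7 CPM in the vehicle and 14.9 and 14.9 CPM in the cisplatin libraries, so that its groups did not overlap despite the small difference. Tbc1d5, a Rab GTPase-activating protein of endosomal sorting, had 24.0 and 26.2 CPM in the vehicle and 19.4 and 16.7 CPM in the cisplatin libraries, and a log2 fold change of -0.48 (SE 0.20).

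The 17 members in no list included LOC100909609 and Car10. Fam172a had 13.4 and 14.0 CPM in the vehicle and 6.42 and 10.9 CPM in the cisplatin libraries, with a log2 fold change of -0.66 (SE 0.32). Ighm, annotated as the constant region of the immunoglobulin mu heavy chain, had a value of 0.61 (SE 0.34), but its annotated span overlaps 9 other protein-coding genes. Adgrv1, a very large adhesion receptor of sensory hair cells, had a value of -0.16, and the exoribonuclease gene Dis3l2 one of -0.14. Hecw1, a ubiquitin ligase, had -0.41 and Edil3, a secreted integrin ligand, had 0.19. The values of Rabgap1l, RGD1564053, Samd12 and AABR07001519.1 lay between -0.12 and 0.04. The range of the 12 tested members of this set was -0.66 to 0.89, with a median of -0.10. Of the 13 members on a list of common fragile site genes written from general knowledge, 11 were tested. Their median was -0.32, and 8 of 11 were negative. In 3 of 11 both cisplatin libraries lay below both vehicle libraries (21.2% of all genes tested) and in 1 both lay above (20.6%). After adjustment 0 passed with edgeR (0.00679% of all genes) or DESeq2 (0.65%), and at an unadjusted p under 0.05 with the fold change limit 0 passed as well in edgeR. The list was matched by symbol, and whether these loci are fragile sites in the rat was not examined. AABR07001519.1, which the deposited annotation describes as parkin, a ubiquitin ligase whose gene lies in a common fragile site, was found after the values were seen. With it the median was -0.30 over 12 tested genes, of which 9 were negative. The list includes Dmd, Magi2, Ctnna3 and Pard3b, whose levels also differed strongly between replicates, as given next.

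Differences between the libraries of a group were larger than those between the groups in most members. The median absolute log2 fold change of the 72 members was 0.30, whereas the median absolute difference between replicates was 0.55 in the vehicle and 0.49 in the cisplatin group. In 38 of 72 members both replicate differences were larger than the fold change, against 5965 of the 14719 genes tested. Over all genes tested the median absolute values were 0.28 for the fold change and 0.31 and 0.34 for the replicate differences. Replicate differences compare single libraries, whereas the fold change compares groups of 2, so replicate differences tend to be larger from spread alone. Members as a group were lower in replicate 2 than in replicate 1, with a median difference of -0.33 in each group, compared with 0.04 and 0.01 over all genes tested. This held in both groups for 46 members, including Syt1, Robo2, Slc9a9, Cdk14 and Nell1. In 15 members replicate 2 was higher in both groups, including Erbb4, Magi2, Pard3b, Ctnna3, Dmd, Utrn, Ptprm and Nkain2. Of the 15, Cdkal1 and Arhgap15 had positive log2 fold changes (0.50 and 0.06) and the others negative ones. The differences of Erbb4 were 1.25 and 1.26, those of Magi2 1.08 and 1.48, and those of Dmd 0.82 and 0.93. The other 11 members differed in direction between the groups.

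**Figure D3:**
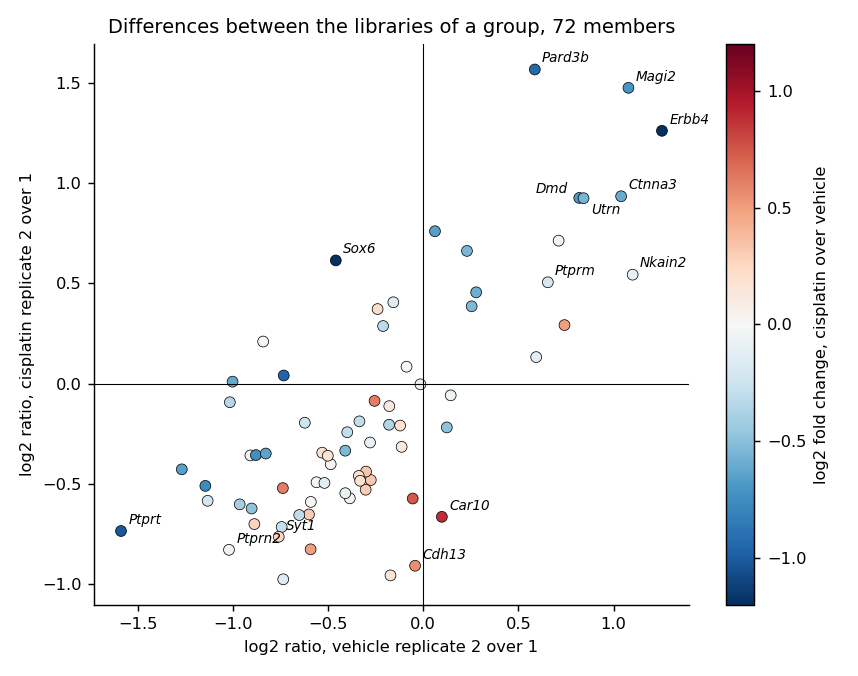
Log2 ratio of replicate 2 over replicate 1 in the vehicle (x axis) and in the cisplatin group (y axis) for the 72 tested members, coloured by the log2 fold change of cisplatin over vehicle, with colours capped at -1.2 and 1.2. Most members lie at the lower left, with replicate 2 below replicate 1 in both groups. Erbb4, Magi2, Pard3b, Ctnna3, Dmd and Utrn lie at the upper right with negative fold changes. Cdkal1 and Arhgap15 were also higher in replicate 2 of both groups and have positive fold changes.

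The cell-type markers moved with the same libraries. The 12 Schwann cell markers had a summed level of 64550 and 163864 CPM in the vehicle and of 49742 and 142528 CPM in the cisplatin libraries. Their median replicate differences were 1.27 and 1.57, and their median log2 fold change was -0.54, with all 12 negative. The 18 sensory neuron markers ran the other way, at 35519 and 27246 CPM in the vehicle and 44238 and 31509 CPM in the cisplatin libraries. Their median replicate differences were -0.41 and -0.49, and 17 of 18 had positive fold changes, with a median of 0.34. The 10 fibroblast and meninges markers summed to 9102 and 12493 CPM in the vehicle and to 4585 and 9072 CPM in the cisplatin libraries. Their median log2 fold change was -0.21, with 6 of 10 negative. The 10 satellite glia markers varied less, from 5864 to 6874 CPM, macrophage markers ran from 65.4 to 76.7 CPM and endothelial markers from 157 to 223 CPM. Skeletal muscle markers, of which 8 of 10 were found, were highest in vehicle replicate 1, at 1029 CPM against 185 to 375 CPM in the other libraries. Their median log2 fold change was -3.37, with 7 negative, and their median replicate differences were -4.91 and -1.73. Erythroid markers, of which 5 of 8 were found, ran from 1106 to 1297 CPM. None of these marker lists holds a member, and the part of the cell make-up in the values of the members was not tested. The plot of replicate differences shows both sets of members apart.

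Genomic span was next compared across all genes tested. The median log2 fold change of the members was -0.11 (quartiles -0.54 and 0.18), and 45 of 72 (62.5%) were negative. Over all genes tested it was -0.01, with 50.9% negative. By span, the median was 0.14 in genes of up to 10 kb, -0.02 at 10 to 50 kb, -0.17 at 50 to 100 kb, -0.21 at 100 to 250 kb and -0.26 at 250 to 500 kb. It did not go on downwards in the members. The 356 genes of 250 to 500 kb had more negative values (68.3%) and a larger share that passed in the lower direction (10.7%, against 4.17% of the members). Among the members the median was -0.14 at 500 to 600 kb, -0.09 at 600 to 800 kb and -0.02 above 800 kb. The 13 long genes left out by symbol had a median of -0.05.

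The median of the members rested on which libraries were set against each other. It was -0.11 for replicate 1 of cisplatin against replicate 1 of vehicle and -0.07 for replicate 2 against replicate 2. Cisplatin replicate 1 against vehicle replicate 2 gave 0.31, and cisplatin replicate 2 against vehicle replicate 1 gave -0.28. Without vehicle replicate 1 the median was 0.14, and without any of the other libraries it stayed negative, at -0.21 without vehicle replicate 2, -0.23 without cisplatin replicate 1 and -0.05 without cisplatin replicate 2. The difference between cisplatin and vehicle over the members was thus smaller than the spread between replicates. No test was run over the members as a set.

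**Figure D4:**
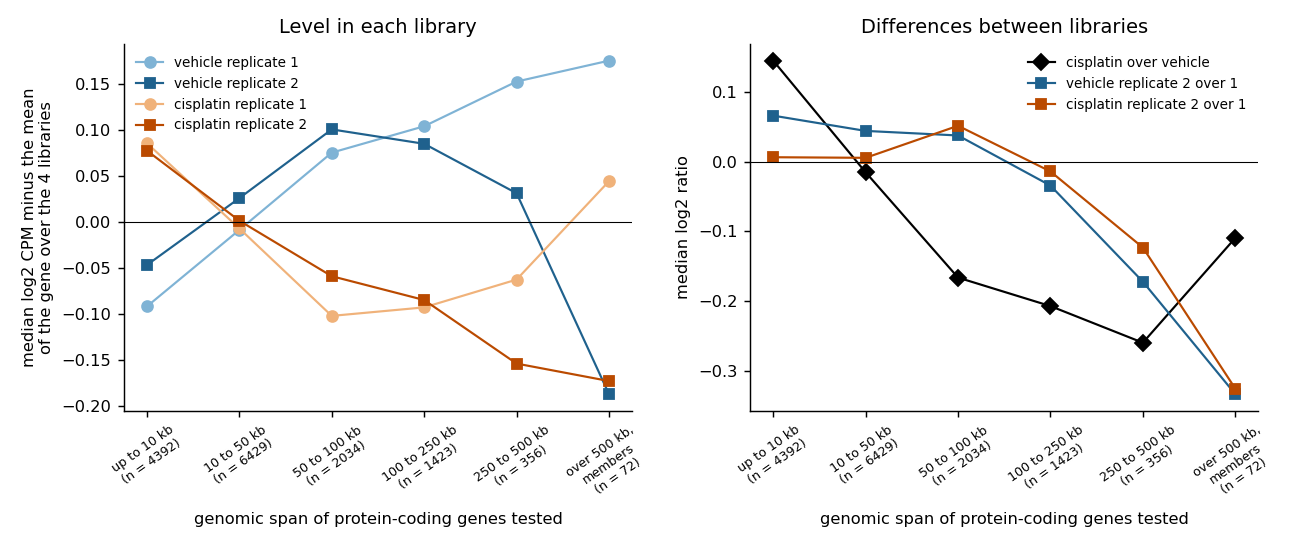
Left, median log2 CPM of each library relative to the mean of the gene over the 4 libraries, by class of genomic span; right, median log2 ratio of cisplatin over vehicle and of replicate 2 over replicate 1 in each group, by the same classes. In genes of 50 to 250 kb both vehicle libraries lie above both cisplatin libraries, whereas in the members both replicate 1 libraries lie above both replicate 2 libraries.

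The plot by class of span shows where the members part from shorter long genes. In genes of 50 to 100 kb the 2 vehicle libraries were at 0.08 and 0.10 and the 2 cisplatin libraries at -0.10 and -0.06, as medians of log2 CPM relative to the mean of each gene. In the members vehicle replicate 1 was at 0.18 and cisplatin replicate 1 at 0.04, against -0.19 and -0.17 in vehicle and cisplatin replicate 2. The median replicate differences in the vehicle and cisplatin groups were -0.03 and -0.01 at 100 to 250 kb, -0.17 and -0.12 at 250 to 500 kb and -0.33 and -0.33 in the members. Within the members they were -0.40 and -0.24 at 500 to 600 kb, -0.36 and -0.40 at 600 to 800 kb and -0.17 and -0.19 above 800 kb. Across the 72 members, Spearman's rho of the log2 fold change was 0.03 with span and -0.01 with exonic length, given as a description, since the members share the same 4 libraries.

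Exonic length followed the fold change more closely than span did over all genes. Across the 14719 genes, Spearman's rho of the log2 fold change was -0.36 with exonic length and -0.28 with span. At equal rank of the other quantity, the partial values were -0.25 for exonic length and -0.10 for span. These are descriptions across genes, which are not independent replicates, and the 2 lengths are themselves correlated (0.57). In 5 classes of exonic length with equal numbers of genes, the median of the other genes was 0.24 in the shortest class and then 0.10, 0.01, -0.07 and, in the longest, -0.24. The members did not follow this order. Their medians were -0.10 (5 members), -0.19 (8), -0.32 (4), -0.14 (15) and -0.05 (40). In the longest class, of 4027 to 28192 bases, 21 of 40 members (52.5%) were negative, compared with 77.5% of the other genes.

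**Figure D5:**
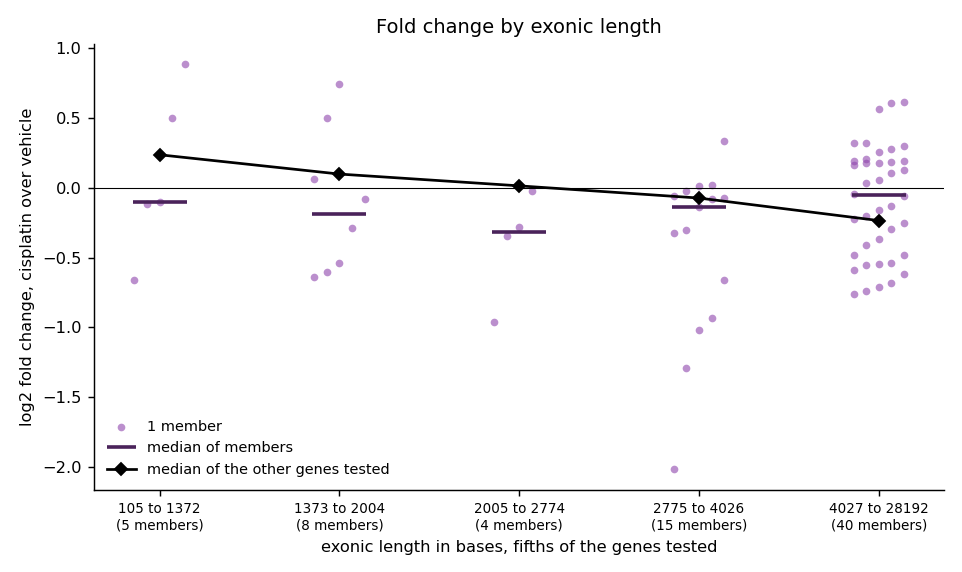
Log2 fold change of cisplatin over vehicle (y axis) by class of exonic length in bases (x axis, 5 classes with equal numbers of genes). Purple points are the members, bars their medians and black diamonds the medians of the other genes tested; the members lie below the other genes in the 4 shorter classes and above them in the longest.

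The plot by exonic length shows that members lay under the other genes in the shorter classes, which hold few of them, and above in the longest class, which holds 40 of 72. When the trend with exonic length was removed in each library, the median of the members was 0.02, with 35 of 72 (48.6%) negative, and that of all genes tested was 0.01 (48.7% negative). The median of the members was therefore no longer negative with this correction and lay close to that of all genes. It was not alike across classes of exonic length. From the shortest to the longest class, the corrected medians of the members were -0.32, -0.28, -0.32, -0.07 and 0.23. Those of the other genes lay between -0.0007 and 0.02. Across the members, Spearman's rho of the corrected fold change with exonic length was 0.35. In genes of 100 to 250 kb and of 250 to 500 kb the corrected median stayed slightly negative, at -0.05 in both. Over all genes tested, the partial rho of the corrected fold change with span was -0.09. In the 5 tested members of highest exonic length, the log2 fold change went from -0.16 to 0.48 in Adgrv1, from -0.13 to 0.44 in Hmcn1, from -0.68 to -0.22 in Dmd, from -0.56 to -0.11 in Utrn and from 0.30 to 0.72 in Robo2. In the 3 of lowest exonic length it went from 0.50 to 0.20 in Nkain3, from -0.10 to -0.35 in Nkain2 and from 0.89 to 0.69 in Car10. With the correction edgeR called 0 members after adjustment, and at an unadjusted p under 0.05 with the fold change limit 3 members passed in the lower direction (4.74% of all genes tested) and 3 in the higher direction (1.51%).

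The 3 members just above it were Dis3l2 (500.08 kb, log2 fold change -0.14), Robo1 (500.952 kb, -0.25) and Rims2 (502.101 kb, -0.62). The 3 genes just below it were Sorcs1 (499.515 kb, -0.93), Lpp (498.006 kb, -2.01, with 25 and 20 counts in the vehicle and 6 and 6 counts in the cisplatin libraries) and LOC100912565 (497.971 kb, 0 counts in every library).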

How the data were processed

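The authors mapped trimmed paired reads of poly(A)-selected RNA to Ensembl Rnor_6.0 with HISAT2 2.0.5 and used StringTie 1.3.3b; the submitters' processing notes also name featureCounts 1.5.0-p3. Whether a library was directional and the strand setting are not given in the sources used here. The authors deposited raw counts per gene and FPKM values. In each library the deposited FPKM equals the count divided by exonic length and by 1 constant.

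Samples were grouped by their labels. Protein-coding genes passing filterByExpr (14719) were compared with edgeR 4.0.16 (glmQLFit, TMM; R 4.3.3) without a block, with Benjamini-Hochberg adjustment over all of them. Calls needed at least a 1.5-fold difference with an adjusted p below 0.05. Standard errors were derived from the fold change and its F statistic. DESeq2 1.42.0 and limma 3.58.1, on log2(FPKM + 1) and log2(FPKM + 0.1), where changes of low genes are understated, were alternatives, with other normalisations, filters, biotypes, span limits, the replicate block and each library left out. The exonic length correction was a lowess curve (span 0.3) of log2 CPM on log exonic length per library, used as an offset. The fits were tested on simulated data.

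Genes were named if among the 10 longest members, the 10 lower and 10 higher of smallest p without overlap between groups, the 3 of highest FPKM in each role list, the fragile site list or the 3 on each side of the span limit. Members outside that rule were added after their values were seen. Matching the fragile site list also by the annotated protein's gene was an alternative chosen after seeing the data. Members, role lists and marker lists were chosen with earlier results of these data known. Reads carry no molecular identifiers and are not independent molecules, so the floor of 3 counts covers counting error only. The p-values measure the spread between these libraries. Results for some single genes are left out.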

Additional observations from a re-analysis of the deposited data

How the results depend on the processing

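Precision is limited by the 2 libraries per group, and members under 1 FPKM rest on few counts. The median log2 fold change of the members (-0.11) stayed between -0.15 and -0.05 under the other normalisations, filters, biotypes, tests and FPKM scales. It was 0.02 with the exonic length correction, and over the fits that each leave out 1 library it ran from -0.23 to 0.14, and its difference from the other genes (-0.10) from -0.23 to 0.13. Above 400 kb, with 141 genes tested, the median was -0.23 and the difference -0.22. Above 1000 kb, with 4 genes tested, the median was -0.81 and the difference -0.80. The count of members lower at an unadjusted p was 3 of 72, against 5.32% of all genes tested. It was 1 of 82 with DESeq2 (against 4.65%) and 0 of 72 with limma on log2(FPKM + 1) (against 3.57%). In the fits that each leave out 1 library it moved as well, upwards without either replicate 2 and downwards without either replicate 1. Above 400, 750 and 1000 kb it was 9 of 141, 0 of 17 and 0 of 4, against 5.32% of all genes. The count of higher members was 2 of 72, against 2.8% of all genes tested, and 1 of 72 with library size alone (against 2.09%). It was 1 of 17 above 750 kb and 0 of 4 above 1000 kb, against 2.8% of all genes. For members that overlap no other protein-coding gene it was 1 of 52, also against 2.8%. Where a group was left with 1 library, that library was assumed to vary like the other group. Among 57 tested members named by rule, the sign of the fold change turned in 8 with the exonic length correction, in 0 to 2 under the other normalisations, filters, tests and FPKM scales, and in 5 to 14 with 1 library left out. The causes of these shifts were not tested.

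The replicate numbers in the sample titles are shared by the groups, but nothing says that same-numbered rats share a litter, day or batch, and the library names number the cisplatin rats 4 and 6. Same-numbered libraries deviated together across genes (Pearson's r of the replicate differences 0.444 over all genes tested and 0.741 over the members; genes are not independent replicates). With a block for the number, edgeR called 9 members after adjustment, which is 12.5%, against 11.3% of all genes tested: Erbb4, Magi2, Dmd, Fam172a, Camta1 and LOC100909609 lower, and Ighm, Rbms3 and Car10 higher. At an unadjusted p with the fold change limit, 11 of 72 were lower, against 10.0007% of all genes tested. There were 4 in the higher direction, against 4.95%, and the median was -0.09. With the block and the exonic length correction together, 6 were called (8.33%, against 7.35% of all genes tested). Dmd, Camta1, LOC100909609, Rbms3 and Car10 were not among them (edgeR's adjusted p from 0.0591 to 0.217), while Robo2 (0.00828) and Cdh13 (0.0422) were called in addition. At an unadjusted p with the fold change limit, 8 of 72 were lower, against 8.96% of all genes tested. In the higher direction there were 6, against 3.39%, and the median was 0.03.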
